A study of Homo sapiens with 12 samples.

Results

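The genes described here carry the symbols of proteins of the cytosolic ribosome and of the mitochondrial ribosome, and they were followed in HL-60 cells, a human promyelocytic leukaemia line. Members were the rows of the raw count table whose symbols carry the RPL, RPS, MRPL or MRPS names, together with RPLP0, RPLP1, RPLP2 and RPSA, and whose counts summed to at least 120 over the 12 libraries. This gave 153 genes of 42157 in the table, 76 cytosolic (45 named for the large and 31 for the small subunit) and 77 mitochondrial (49 large and 28 small). The subunit was read from the L or S of the symbol alone, which need not match the place of the protein in the ribosome. Nor does a symbol alone, as for MRPS36, show that a protein belongs to the ribosome. The member with the lowest total was RPL39L with 600 counts, and the matching row just under the minimum was RPL10L with 13. Cells received the solvent DMSO, 1 µM daunorubicin (DNR, an anthracycline used in acute myeloid leukaemia), 0.5 µM ML-792 (an inhibitor of the enzyme that activates the small protein modifier SUMO), or ML-792+DNR, each for 3 h. Polyadenylated RNA was sequenced from 3 replicates per group, which the study's methods describe as independent experiments. All libraries come from this 1 cell line. Of the promyelocytic markers, MPO stood between 10090 and 12200 CPM (counts scaled to a common library total of 1e6), whereas ELANE stood between 0.324 and 4.03 CPM. The summed level of the markers of T, B, erythroid, epithelial and stromal cells did not pass 3.07 CPM for any list, and CD3E, MS4A1, HBB, HBA1, EPCAM and COL1A2 were at 0 in every library.

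A ribosome joins a small subunit, which reads the messenger RNA, and a large subunit, which forms the peptide bond. The cytosolic ribosome makes nearly all cellular proteins. The mitochondrial ribosome is built from proteins encoded in the nucleus and ribosomal RNA encoded in the mitochondrial genome, and makes only a few subunits of the respiratory chain. Messenger RNAs of cytosolic ribosomal proteins typically start with a C followed by a run of pyrimidines, the 5′ terminal oligopyrimidine (TOP) tract, through which their translation responds to mTOR and to the RNA-binding protein LARP1. Messenger RNAs of mitochondrial ribosomal proteins are not counted among the classic TOP mRNAs, and promoters of many nuclear genes for mitochondrial proteins bind NRF1, GABP or YY1.

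The start sites show how far the classes differ in sequence. RefSeq start sites (GRCh38.p14) were found for 128 of the 153 members, and the first listed window was read where a gene had several, as 21 members did. A C followed by at least 4 pyrimidines, beginning between 10 bases before and 10 bases after the start, was present in 52 of 60 cytosolic members (86.7%), in 22 of 68 mitochondrial members (32.4%) and in 32.3% of all 27305 promoters. The windows below run from 10 bases before the start to 20 bases from it, with the tract in capitals. They show 5 of the 6 cytosolic and 5 of the 19 mitochondrial members that changed with DNR.
RPS27 (chr1:153990752-153990781, + strand): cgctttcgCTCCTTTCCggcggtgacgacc
RPS12 (chr6:132814559-132814588, + strand): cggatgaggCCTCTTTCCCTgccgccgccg
RPS13 (chr11:17077648-17077677, - strand): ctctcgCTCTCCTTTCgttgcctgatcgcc
RPL24 (chr3:101686699-101686728, - strand): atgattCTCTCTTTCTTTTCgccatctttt
RPS4X (chrX:72277229-72277258, - strand): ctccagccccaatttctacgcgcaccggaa
MRPS6 (chr21:34073568-34073597, + strand): ctcggaccgtgCTTTCgccgcctgggagcc
MRPS11 (chr15:88467698-88467727, + strand): gactggggtcaattcaagtcatgcaggctg
MRPS22 (chr3:139343984-139344013, + strand): aatCCCTCCCaaccacttccggcgcaagtg
MRPL17 (chr11:6683321-6683350, - strand): tctaCCTTCCagtttccagttccggcctcc
MRPS18B (chr6:30617830-30617859, + strand): CCTTTCCgtcaattcctgtcctgggcgtac
The tract was 9 to 14 bases long in RPS27, RPS12, RPS13 and RPL24 and 5 to 7 in MRPS6, MRPS22, MRPL17 and MRPS18B, and the windows of RPS4X and MRPS11 held none. Among the changed mitochondrial members not shown, MRPL30 and MRPL32 held a tract. MRPS15, MRPS18A, MRPS25, MRPS31, MRPL18, MRPL27, MRPL33, MRPL36, MRPL46 and MRPL50 held none, and no window was found for MRPL2 and MRPL13.

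Over the whole windows of 300 bases (250 before the start and 50 after it), read on both strands, the letters CCGGAAG, a core bound by ETS factors such as GABP, stood in 21 of 60 cytosolic (35.0%) and 29 of 68 mitochondrial members (42.6%), against 10.7% of all promoters. The YY1 core AAGATGGC stood in 6 cytosolic (10.0%) and 19 mitochondrial members (27.9%), against 3.0% of all promoters. The NRF1 core GCGCATGC was in 3.3% of cytosolic, 8.8% of mitochondrial and 3.3% of all promoters, and the TATA letters TATAAA were in 5 cytosolic, 2 mitochondrial and 3264 of all promoters. These counts describe letters in a window and not occupied sites. The changes described below had similar medians in cytosolic members with and without the tract, at 0.18 (52 genes) and 0.19 (8 genes) on the log2 scale for DNR against DMSO, and in mitochondrial members they were 0.18 (22 genes) and 0.10 (46 genes). The 8 include RPL6, RPL13, RPL15 and RPS27A, which have several windows of which only the first listed was read. Whether the tract matters for the change was not tested.

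The libraries held 28647951 to 46451654 reads in genes. Cytosolic members took 8.85%, 10.2% and 9.66% of them in the DMSO libraries, 10.5%, 10.5% and 10.9% in the DNR libraries, 9.04%, 10.5% and 9.61% in the ML-792 libraries, and 11.5%, 11.1% and 11.6% in the ML-792+DNR libraries. All DNR shares were above all DMSO shares and all ML-792+DNR shares above those of every other group. Mitochondrial members took 0.555%, 0.606% and 0.597% in DMSO, 0.623%, 0.6004% and 0.637% in DNR, 0.557%, 0.589% and 0.650% in ML-792, and 0.671%, 0.655% and 0.695% in ML-792+DNR, so that DMSO and DNR overlapped. Reads of the cytosolic class outnumbered those of the mitochondrial class 14.8 to 17.8 times. Shares and CPM are relative to the other RNAs of a library, and in bulk RNA fewer cells and less RNA per cell cannot be told apart. Reads with more than 1 alignment, which the counter discards, made up 26.6% to 27.2% of the records in DMSO and ML-792 libraries and 28.0% to 29.2% in libraries with DNR. These reads can come from near-identical copies of the cytosolic members, and their part in the shares was not tested.

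**Figure D1:**
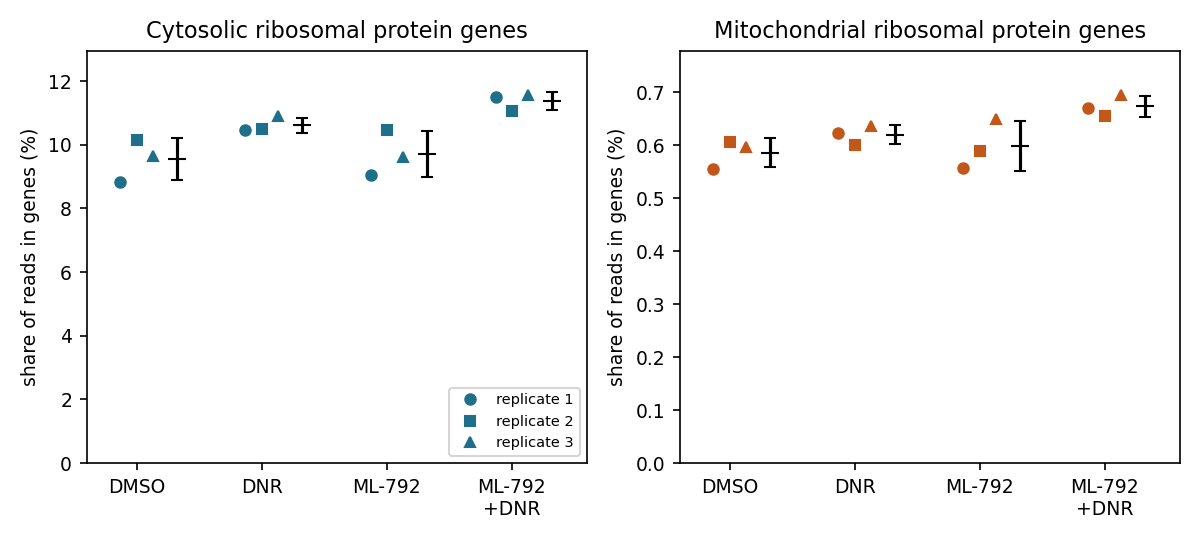
Share of the reads in genes (%, y axis) taken by the 76 cytosolic members (left) and the 77 mitochondrial members (right) in each library, by group. Points are libraries, with the replicate number as the symbol, and the bars are the mean ± SD of 3. The ML-792+DNR libraries lie highest in both panels, at 11.1% to 11.6% and at 0.655% to 0.695%.

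Per kilobase of the canonical transcript, the cytosolic members of the DMSO libraries had a median level of 1138 CPM per kb and the mitochondrial members 39.9. RPS18 of the small subunit was highest at 7901 ± 680 (SD, n = 3) CPM per kb, and RPS12 of the same subunit was also near the top at 4761 ± 276. RPL39L, a paralogue of RPL39 best known from the testis, was lowest at 1.38 ± 0.81, after RPS27L at 7.56 ± 0.33 and RPL13 at 134 ± 24.3. The level of RPS27L, a paralogue of RPS27 that responds to p53, is divided by a long annotated transcript of 6110 bases. MRPL51, MRPL20 and MRPL33 of the large subunit led the mitochondrial class at 182 ± 8.25, 180 ± 38.1 and 173 ± 13.5 CPM per kb, and MRPS11, MRPL42 and MRPL57 closed it at 7.98 ± 1.00, 9.77 ± 0.29 and 10.1 ± 3.15. These low places also depend on the annotated length. MRPL42 is divided by 15557 bases and held 64970 counts over all libraries, and MRPS11 is divided by 3392 bases. The neighbours in these orders overlap within their SD at the head of the mitochondrial class, while RPS18 and RPS12 were further apart than theirs.

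DNR against DMSO asked what the drug alone did to the RNAs for ribosomal proteins. The cytosolic class shifted upward in small steps. Its median change was 0.19 on the log2 scale, on which 1 is a doubling, with the middle 50% of members between 0.14 and 0.25, and 75 of 76 members lay above 0, against a median of 0.01 and 51.2% above 0 over all 13696 genes tested. By edgeR's quasi-likelihood test with Benjamini-Hochberg adjustment over all those genes, 6 cytosolic members rose at an adjusted p under 0.05, namely RPS27, RPS20, RPS4X, RPS12, RPS13 and RPL24, and none fell, where 14.3% of all genes rose and 15.7% fell. At an unadjusted p under 0.05 the members numbered 20 (26.3%), all higher, beside 40.5% of all genes. DESeq2 called 8 and limma voom 7 cytosolic members, against 4326 and 4134 of all 13696 genes. With a term for the replicate number added to the fit, 19 cytosolic members rose and none fell, where 42.1% of all genes were called. No member of either class reached 2-fold and passed, against 6.98% of all genes. Libraries of DNR stood wholly above those of DMSO for 41 cytosolic members and wholly below for none, against 23% and 23.6% of all genes.

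RPS27, a zinc-finger protein of the small subunit, was at 854, 1056 and 949 CPM in DMSO and at 1222, 1337 and 1106 CPM in DNR. All DNR libraries were above all DMSO libraries, and the change was 0.36 ± 0.12 (SE, adjusted p = 0.0374). RPS20 had 369, 399 and 386 CPM in DMSO and 447, 466 and 483 CPM in DNR, a rise of 0.28 ± 0.08 (adjusted p = 0.0208) with the groups apart. RPS4X, the copy of RPS4 on the X chromosome, went from 2134, 2285 and 2100 CPM to 2719, 2648 and 2510 CPM. That was 0.27 ± 0.09 (adjusted p = 0.033), again with no overlap. RPS12 of the small subunit rose by 0.27 (adjusted p = 0.029), RPS13 by 0.26 (adjusted p = 0.0365) and RPL24 of the large subunit by 0.23 (adjusted p = 0.0371). Small-subunit members made up 5 of the 6, and the medians of the subunits were 0.20 (31 small) and 0.18 (45 large). The lowest value of the class was that of RPL3, which helps to form the peptidyl transferase centre, at -0.02 ± 0.09, with 2688, 2553 and 2945 CPM in DMSO and 2673, 2515 and 2893 CPM in DNR.

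The calls of single cytosolic members depended on single libraries. The count of 6 fell to 0 without replicate 1 of DMSO, to 0 without replicate 3 of DMSO, to 1 without replicate 1 of DNR and to 2 without replicate 2 or replicate 3 of DNR. With the replicate 1 libraries of all groups left out, whose transcripts from the mitochondrial genome took 4.01% to 6.37% of reads in genes against 2.49% to 3.48% in the others, no cytosolic member passed and the class median was 0.13, with all genes at -0.00246. Within replicates, the cytosolic median difference between DNR and DMSO was 0.28, 0.09 and 0.19, with 72, 57 and 75 of 76 members higher.

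Mitochondrial members changed in both directions under DNR. Of 77, 13 rose and 6 fell, beside 14.3% and 15.7% of all genes, and the middle 50% of changes ran from 0.01 to 0.26 around a median of 0.13. The spread of the class, 0.25 between the quartiles, was wider than the 0.11 of the cytosolic class and narrower than the 0.52 of all genes. The median was 0.07 without replicate 1 of DMSO and 0.05 on replicates 2 and 3 alone, and within replicates it was 0.21, 0.01 and 0.11, with 55, 40 and 63 of 77 members higher. The count of called members was 9 to 21 with single libraries left out. With a term for the replicate number added to the fit, 18 rose and 8 fell, where 42.1% of all genes were called. Members above 0 numbered 58. DNR libraries stood wholly above DMSO for 23 members and wholly below for 11, beside 23% and 23.6% of all genes. Besides those described next, MRPS22, MRPS15, MRPL46, MRPL33, MRPL18, MRPS25, MRPL32, MRPS18A, MRPL30 and MRPL13 rose, by 0.25 to 0.44, and MRPL50, MRPS31 and MRPL27 fell, by 0.20 to 0.23.

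MRPS6, a small-subunit protein of bacterial ancestry, had 27.4, 35.8 and 30.5 CPM in DMSO and 63.6, 50.3 and 52.4 CPM in DNR. Its rise of 0.83 ± 0.12 (adjusted p = 0.000247) was the largest of all 153 members, and the groups were well apart. MRPS11, the uS11 protein of the small subunit, had 24.3, 30.9 and 26.1 CPM in DMSO and 49.5, 42.0 and 43.4 CPM in DNR, a rise of 0.73 ± 0.15 (adjusted p = 0.00288). MRPL2, which lies in the core of the large subunit, had 35.2, 47.3 and 44.6 CPM in DMSO and 64.4, 51.4 and 61.5 CPM in DNR, with the groups apart and a rise of 0.48 ± 0.14 (adjusted p = 0.0213). MRPL17, the bL17 protein near the exit of the peptide tunnel, went the other way. It had 33.9, 45.7 and 44.3 CPM in DMSO and 18.9, 27.8 and 22.6 CPM in DNR, and fell by 0.84 on the log2 scale (SE 0.19, adjusted p = 0.00477), with every DNR library below every DMSO library. MRPS18B, which has the paralogues MRPS18A and MRPS18C, had 146, 122.5 and 152 CPM in DMSO and 108, 91.4 and 116 CPM in DNR, a fall of 0.42 on the log2 scale (SE 0.10, adjusted p = 0.00865). MRPL36 went from 19.3, 20.2 and 22.7 CPM to 14.8, 16.9 and 17.8 CPM, at -0.33 ± 0.11 (adjusted p = 0.0396).

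The MRPS18 paralogues, which belong to a single protein family, had different values. MRPS18A rose by 0.27 ± 0.10 (adjusted p = 0.0474), a call lost in 12 of 23 alternatives, among them those without any single DMSO or DNR library, MRPS18B fell as described, and MRPS18C was at -0.00372 ± 0.08 (adjusted p = 0.979), with 75.2, 67.8 and 70.3 CPM in DMSO and 68.5, 69.6 and 74.7 CPM in DNR. The calls of MRPS6, MRPS11 and MRPL17 passed in all 23 alternative fits (other tools, scalings and filters, or libraries left out), and that of MRPS18B in all but the fit on replicates 2 and 3. MRPL2 lost its call without replicate 1 of DMSO, replicate 1 of DNR or replicate 3 of DNR, and MRPL36 lost it in 7 alternatives. On GRCh37, MRPS6 (chr21:35445524-35515334) shares 168 exon bases with SLC5A3 on the same strand, 18.1% of its exon length, and MRPS11 (chr15:89010684-89024007) shares none with another gene of the count table.

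**Figure D2:**
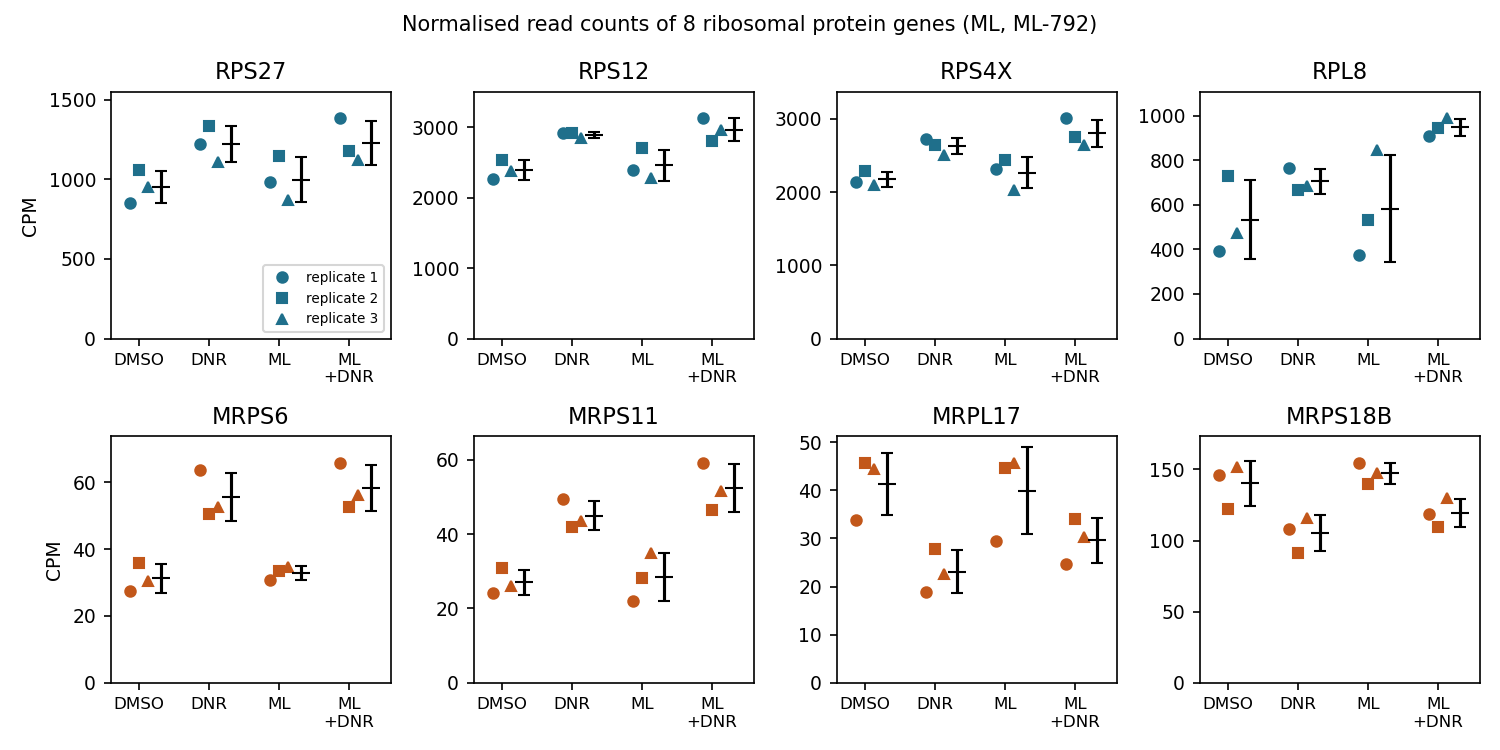
Normalised read counts (CPM, y axis from 0) of 8 ribosomal protein genes in each library, by group. Points are libraries, with the replicate number as the symbol, bars are the mean ± SD of 3, blue marks cytosolic and orange mitochondrial members. MRPS6 and MRPS11 are higher and MRPL17 lower in DNR than in DMSO with no overlap, and RPL8 spreads from 394 to 731 CPM within DMSO.

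The same drug was then compared in cells that also received ML-792, as ML-792+DNR against ML-792, with other libraries on both sides. More cytosolic members passed than without ML-792. There were 27 that rose and none that fell, against 16.3% and 17.4% of all genes, and the class median was 0.23, with 75 of 76 members above 0. In the same comparison 25 mitochondrial members rose and 2 fell, with a median of 0.20. No member was both called and past 2-fold, against 6.34% of all genes. Cytosolic libraries stood apart upward for 42 members and downward for none, and mitochondrial ones for 29 and 5, against 21.3% and 21.5% of all genes. At an unadjusted p under 0.05 the cytosolic members numbered 51 (67.1%), of which 50 were higher, beside 44.3% of all genes. DESeq2 called 33 and limma voom 35 cytosolic members, against 4887 and 4595 of all genes tested. A fit of the ML-792 and ML-792+DNR libraries alone called 4 cytosolic and 13 mitochondrial members, and its share over all genes is not given. With the replicate block, a fit that adds a term for the replicate number, whose libraries deviated together here, 55 cytosolic members rose and 1 fell, RPL41, where 46.7% of all genes were called.

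RPL8 of the large subunit had 373, 530 and 844 CPM in ML-792 and 908, 946 and 987 CPM in ML-792+DNR. The rise was 0.70 ± 0.25 (adjusted p = 0.0432), although the ML-792 libraries ranged widely and the call was lost in 14 of 23 alternatives. RPL29 had 376, 580 and 509 CPM in ML-792 and 794, 621 and 704 CPM in ML-792+DNR, with the groups apart at 0.53 ± 0.14 (adjusted p = 0.0128). RPS19, the gene most often mutated in Diamond-Blackfan anaemia, rose by 0.31 ± 0.10 (adjusted p = 0.0338), a call lost in 9 of 23 alternatives. The cytosolic count depended on single libraries and was 7 without replicate 1 of ML-792, 1 without replicate 1 of ML-792+DNR, 11 without replicate 3 of ML-792+DNR, 13 without replicate 3 of DMSO and 15 without replicate 3 of ML-792. Without the replicate 1 libraries of all groups it was 0, with a class median of 0.18.

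MRPL55 of the mitochondrial large subunit had 10.6, 21.1 and 31.9 CPM in ML-792 and 35.0, 39.5 and 43.9 CPM in ML-792+DNR. It rose by 0.90 ± 0.31 (adjusted p = 0.0391), a call that was lost in 12 of 23 alternatives. MRPS11 rose by 0.89 ± 0.15 (adjusted p = 0.000857), from 21.9, 28.3 and 34.9 CPM to 59.2, 46.5 and 51.7 CPM, with no overlap. MRPS6 rose by 0.82 ± 0.12 (adjusted p = 0.000336), from 30.6, 33.5 and 34.7 CPM to 65.8, 52.5 and 56.2 CPM. Both held in all 23 alternatives. MRPS18B fell by 0.30 on the log2 scale (SE 0.10, adjusted p = 0.0369) from 155, 140 and 148 CPM to 119, 110 and 130 CPM, and lost its call in 5 alternatives. MRPS27, a protein with pentatricopeptide repeats, fell by 0.20 on the log2 scale (SE 0.07, adjusted p = 0.046) from 126, 115 and 111 CPM to 106, 99.97 and 101 CPM, and that call was lost in 11 alternatives. MRPL17 was at -0.43 ± 0.19 (adjusted p = 0.0943), or -0.42 ± 0.08 (adjusted p = 0.00158) with the replicate block. The mitochondrial count was 14 or 15 without replicate 1 or 2 of ML-792, 10 without replicate 1 of ML-792+DNR, 14 without replicate 3 of ML-792+DNR, and 4 on replicates 2 and 3 alone.

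The DNR effect without ML-792 and the DNR effect with it share no library, but the libraries come from the same 3 experiments, and same-numbered libraries deviated together, with r from 0.245 to 0.438 between DMSO and ML-792 and from 0.318 to 0.543 between DNR and ML-792+DNR. The effects are therefore not independent, and their values are set side by side as a description. Across the 77 mitochondrial members Pearson's r between them was 0.91 and across the 76 cytosolic members 0.85, where the points are genes of the same libraries and are not independent replicates. Both changes were above 0 for 74 cytosolic and 57 mitochondrial members. Called higher in both were 4 cytosolic members (RPS4X, RPS12, RPS13 and RPL24) and 12 mitochondrial members. MRPS18B was called lower in both. Over all genes, 14.3% were called higher without ML-792 and 16.3% with it, and 51.2% and 51.5% lay above 0. The joint counts and r were not computed over all genes. Whether they are particular to these members was therefore not tested. Of the mitochondrial members that rose with DNR, MRPL30 was the one not called with ML-792 present, at 0.18 ± 0.08 (adjusted p = 0.0882, or 0.0097 with the replicate block). RPL41, which encodes a very short peptide, had the lowest cytosolic value with ML-792 present. Its changes were 0.04 ± 0.14 without ML-792 and -0.29 ± 0.14 with it (adjusted p = 0.842 and 0.112). Under the replicate block the change with ML-792 was -0.30 ± 0.11 (adjusted p = 0.0447).

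**Figure D3:**
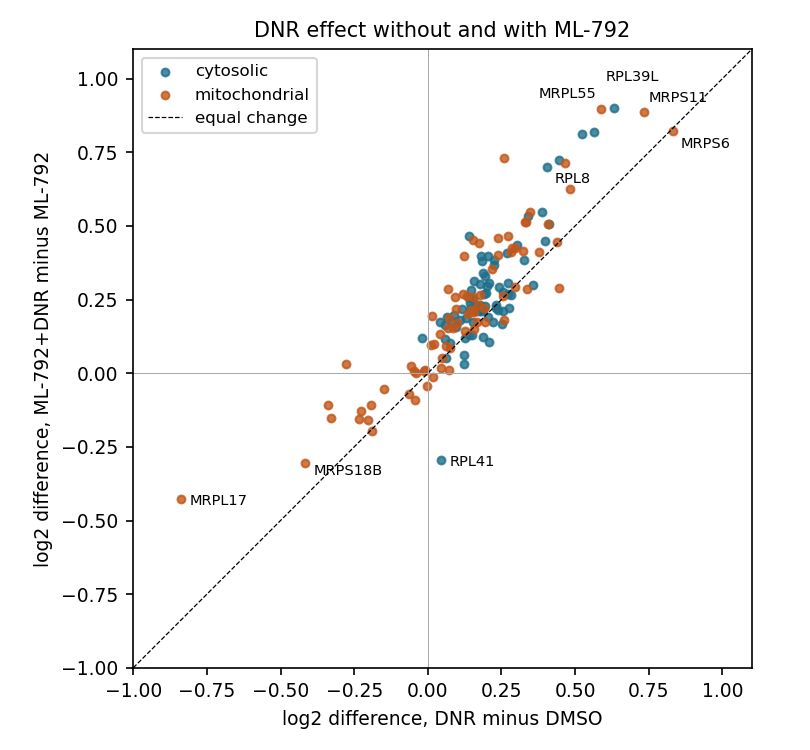
Each point is a ribosomal protein gene, placed by its log2 difference between DNR and DMSO (x axis) and between ML-792+DNR and ML-792 (y axis), blue for cytosolic and orange for mitochondrial members. The dashed line marks equal change. Cytosolic members gather near medians of 0.19 and 0.23, and mitochondrial members reach from MRPL17 at -0.84 and -0.43 to MRPS6 at 0.83 and 0.82.

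ML-792 against DMSO asked whether the SUMOylation inhibitor alone acted on these genes. No member of either class passed the edgeR test, against 0.241% of all genes. The counts were also 0 and 0 at an unadjusted p under 0.05, where 5.09% of all genes passed, 0 and 0 by DESeq2, and 0 and 0 by limma voom. Of all genes tested, DESeq2 called 117 and limma voom 42. The medians were 0.06 for the cytosolic and 0.05 for the mitochondrial class, and 67 of 76 and 66 of 77 members lay above 0. The ML-792 libraries stood wholly above DMSO for no cytosolic and 2 mitochondrial members, against 4.51% of all genes. MRPS30 was one of them, with 48.9, 49.8 and 46.1 CPM in DMSO and 50.7, 50.6 and 59.0 CPM in ML-792, at 0.15 ± 0.08 (adjusted p = 1). The cytosolic direction was not shared by the replicates, since 53, 68 and 19 of 76 members were higher in replicates 1, 2 and 3, with median differences of 0.06, 0.12 and -0.05.

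ML-792+DNR against DNR asked what the inhibitor added to the drug. Again no member of either class passed, against 0.745% of all genes. At an unadjusted p under 0.05 there were 2 cytosolic and 9 mitochondrial members, all higher, or 2.63% and 11.7% of their class, beside 12.9% of all genes. DESeq2 called 0 and 1, and limma voom 0 and 0, against 376 and 110 of all genes. The values leaned upward nevertheless. The medians were 0.12 and 0.13, and 74 of 76 and 71 of 77 members lay above 0, with 50.3% of all genes there. ML-792+DNR libraries stood wholly above DNR libraries for 23 cytosolic and 27 mitochondrial members, against 8.89% of all genes, and wholly below for none. Within replicates 1, 2 and 3, the cytosolic median difference was 0.17, 0.08 and 0.10, and the mitochondrial one 0.16, 0.14 and 0.12. With the replicate block, which the numbers supported in this comparison, 1 mitochondrial member passed, against 3.94% of all genes called. That member was MRPL17, at 0.36 ± 0.08 (adjusted p = 0.0321), with 18.9, 27.8 and 22.6 CPM in DNR and 24.7, 34.0 and 30.2 CPM in ML-792+DNR. Each ML-792+DNR library was above the DNR library of the same number, but the groups overlapped, and without the block the value was 0.36 ± 0.19 (adjusted p = 0.457).

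A test of the difference between the DNR effects with and without ML-792 called no member, as it called 0% of all genes. At an unadjusted p under 0.05 it called 0 members and 493 of all genes. DESeq2 and limma voom called 0 members, against 17 and 0 of all genes. The medians of this difference were 0.06 for the cytosolic and 0.08 for the mitochondrial class. For MRPL17 it was 0.41 ± 0.26 (adjusted p = 0.999), and for MRPS6 it was -0.00963 ± 0.17 (adjusted p = 0.999). The larger number of cytosolic members called with ML-792 present is therefore not shown to be a larger effect.

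The largest separation was between ML-792+DNR and DMSO. There 47 cytosolic members rose and none fell, with 61 higher at an unadjusted p under 0.05, where 45.6% of all genes passed, and 53 called by DESeq2 and by limma voom, and 37 mitochondrial members rose and none fell, with 46 at an unadjusted p under 0.05 of which 43 were higher, 39 by DESeq2 and 37 by limma voom. Over all genes 17% rose and 18.4% fell, and DESeq2 called 5075 and limma voom 4860 of them. Cytosolic libraries stood wholly above DMSO for 63 members and wholly below for none, and mitochondrial ones for 50 and 3, against 24.2% and 24.5% of all genes. The medians were 0.30 and 0.26. With the replicate block 68 cytosolic members rose and none fell, and 46 mitochondrial members rose and 3 fell, where 49% of all genes were called. Those 3 were MRPL17 at -0.48 ± 0.08 (adjusted p = 0.00062), MRPS18B at -0.23 ± 0.06 (adjusted p = 0.00809) and MRPS27 at -0.16 ± 0.05 (adjusted p = 0.0222). Without the block, MRPL55 alone passed the 2-fold limit, where 6.48% of all genes did, with 12.9, 27.4 and 18.4 CPM in DMSO and 35.0, 39.5 and 43.9 CPM in ML-792+DNR, at 1.02 ± 0.31 (adjusted p = 0.0212).

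Among the cytosolic members that passed, RPS15, a small-subunit protein of the head domain, had the largest rise, of 0.86 ± 0.27 (adjusted p = 0.0237), from 179, 288 and 213 CPM to 375, 385 and 478 CPM. RPL8 followed at 0.83 ± 0.25 (adjusted p = 0.0196), and RPS2 at 0.72 ± 0.26 (adjusted p = 0.0482), a call lost in 13 of 23 alternatives. RPL39L, RPLP2 and RPLP1, which did not pass in this fit, were at 1.13, 0.81 and 0.78 (adjusted p = 0.129, 0.081 and 0.0922). With the replicate block these members passed, with adjusted p of 0.0477, 0.028 and 0.0324. RPS2 had 468, 663 and 580 CPM in DMSO and 932, 827 and 1057 CPM in ML-792+DNR, but the third ML-792 library held 1096 CPM. MRPS11 and MRPS6 rose by 0.96 ± 0.15 (adjusted p = 0.000465) and 0.90 ± 0.12 (adjusted p = 0.000151). MRPS12, which carries the decoding-site protein uS12m, rose by 0.69 ± 0.18 (adjusted p = 0.0115), a call lost without replicate 1 of DMSO. The calls of RPS15, RPL8 and MRPL55 were lost without replicate 1 of DMSO, replicate 3 of DMSO or replicate 3 of ML-792+DNR. The cytosolic count was 8 without replicate 1 of DMSO, 18 without replicate 3 of DMSO and 10 without replicate 1 of ML-792+DNR, and the mitochondrial count was 14, 20 and 17 without the same libraries and 21 without replicate 3 of ML-792+DNR. On replicates 2 and 3 alone 1 cytosolic and 10 mitochondrial members passed, with medians of 0.22 and 0.20.

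**Figure D4:**
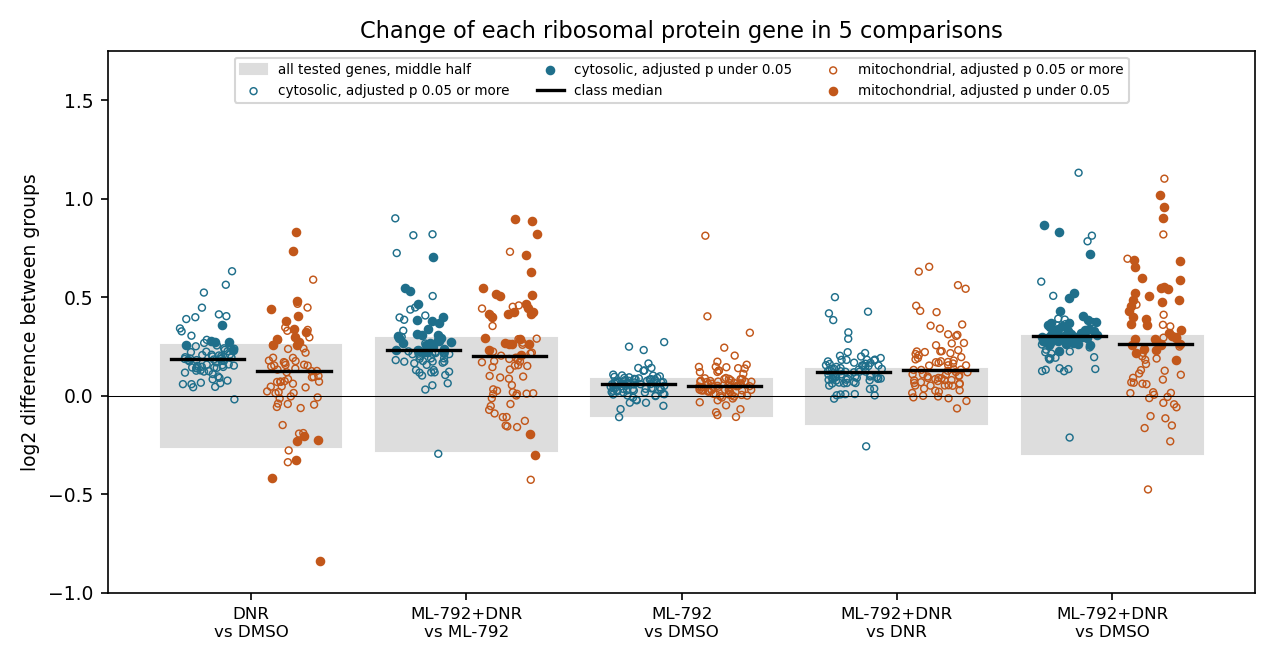
Log2 difference (y axis) of every cytosolic (blue) and mitochondrial (orange) member in 5 comparisons (x axis). Filled points have an adjusted p under 0.05 in edgeR, black lines are class medians, and grey boxes span the quartiles of all 13696 genes tested. The class medians run from 0.05 for ML-792 against DMSO to 0.30 for ML-792+DNR against DMSO, and the cytosolic points are packed more closely than the mitochondrial ones in the comparisons with DNR.

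Set directly against each other, the classes differed by less than 0.1 in their central change. The cytosolic median minus the mitochondrial median was 0.06 for DNR against DMSO, 0.03 for ML-792+DNR against ML-792, 0.01 for ML-792 against DMSO, -0.01 for ML-792+DNR against DNR and 0.04 for ML-792+DNR against DMSO. In single libraries, the cytosolic median level minus the mitochondrial one, each relative to the mean of all libraries, was -0.08, -0.02 and -0.04 in DMSO, 0.02, 0.06 and 0.0024 in DNR, 0.03, 0.09 and -0.17 in ML-792, and 0.05, 0.01 and 0.0054 in ML-792+DNR. Every DNR and every ML-792+DNR library thus lay above every DMSO library, while the ML-792 libraries covered the values of all other groups. The SD of this difference was 0.03 in DMSO (n = 3), 0.03 in DNR, 0.14 in ML-792 and 0.02 in ML-792+DNR. For DNR against DMSO the class difference ran from 0.04 to 0.09 over the alternatives, and for ML-792+DNR against DMSO from 0.02 to 0.06. No test was made of it.

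Part of the variation among members followed the GC content of their transcripts within single libraries. Across the mitochondrial members, a library's level relative to the mean of all libraries correlated with GC content at r = -0.58 in replicate 1 of DMSO, -0.63 in replicate 1 of ML-792 and 0.60 in replicate 3 of ML-792. In the ML-792+DNR libraries r lay between 0.32 and 0.59 for the mitochondrial and between 0.24 and 0.49 for the cytosolic class. These correlations are across genes of 1 library, with 77 or 76 genes. RPL8, RPS15, MRPL55 and MRPL41, at 63.6%, 61.3%, 63.7% and 66.7% GC, each had their lowest level of all libraries in replicate 1 of ML-792. RPLP1 and RPLP2, the acidic stalk proteins that recruit elongation factors, also differed widely between libraries of a group, with 619, 1481 and 1099 CPM and with 328, 891 and 526 CPM in DMSO, at 47.4% and 57.4% GC. Their changes with DNR were 0.56 ± 0.34 (adjusted p = 0.241) and 0.52 ± 0.34 (adjusted p = 0.275). RPLP0, the base of the same stalk, was steady at 1623, 1514 and 1633 CPM in DMSO and 1756, 1619 and 1728 CPM in DNR (adjusted p = 0.398). When each library's dependence on GC content was taken out, for the 12435 tested genes with a known GC content, 15 cytosolic members passed for DNR against DMSO and 49 for ML-792+DNR against ML-792, with class medians of 0.21 and 0.29. The share of all genes called with this offset is not given, so the counts are not a result about the members alone. What part of single changes follows GC content was not tested further.

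**Figure D5:**
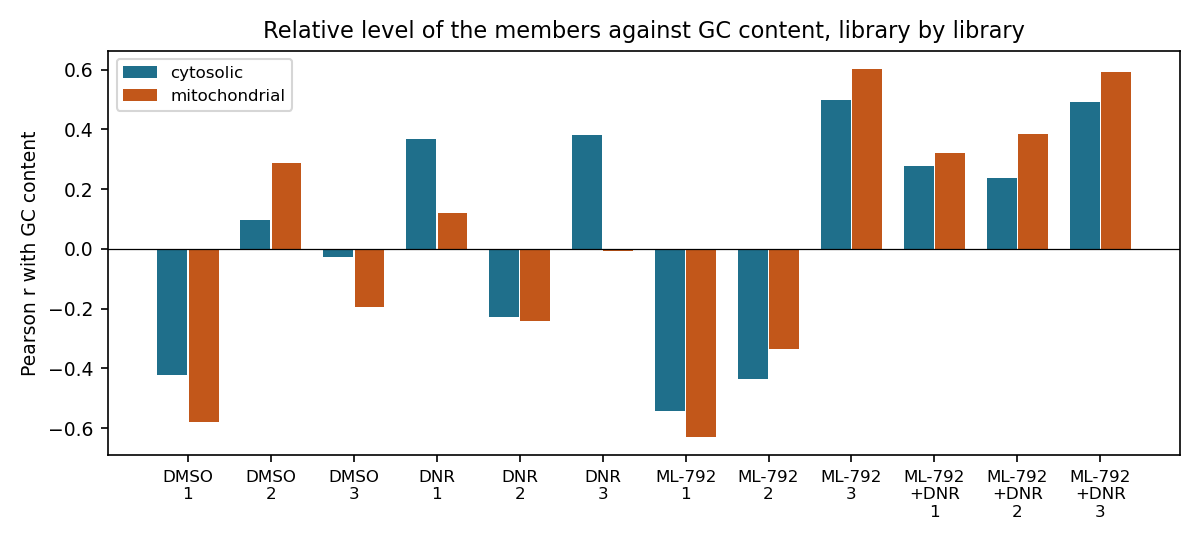
Pearson's r (y axis) between the GC content of a member's transcript and its log2 level in a library relative to the mean over all 12, for 76 cytosolic (blue) and 77 mitochondrial (orange) members, by library (x axis, group and replicate). Both bars are negative for replicate 1 of DMSO and of ML-792 and positive for replicate 3 of ML-792 and all ML-792+DNR libraries.

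RPL5 and RPL11, which together with 5S RNA can bind MDM2 and so stabilise p53, moved within the range of their class. RPL5 had 2616, 2696 and 2597 CPM in DMSO and 2926, 2983 and 2804 CPM in DNR, apart but not past the test at 0.14 ± 0.08 (adjusted p = 0.214). RPL11 had 2195, 2409 and 2317 CPM in DMSO and 2811, 2796 and 2524 CPM in DNR, at 0.23 ± 0.10 (adjusted p = 0.0902, or 0.0249 with the replicate block). It rose in ML-792+DNR against DMSO by 0.33 ± 0.10 (adjusted p = 0.0186). RPS14, whose loss marks the 5q- syndrome, was at 0.08 ± 0.08 (adjusted p = 0.519) with DNR. RPS27L was at 0.19 ± 0.09 (adjusted p = 0.127), beside the rise of RPS27. RPL39 was at 0.25 ± 0.13 (adjusted p = 0.15, or 0.0242 with the replicate block). Its paralogue RPL39L, at 0.39 to 3.44 CPM over all libraries, was at 0.63 ± 0.57 (adjusted p = 0.441). RPSA, the laminin receptor protein of the small subunit, was at 0.13 ± 0.08 (adjusted p = 0.229), with 939, 930 and 949.9 CPM in DMSO and 1051, 982 and 1047 CPM in DNR. MRPL33 rose by 0.34 ± 0.08 (adjusted p = 0.0069), from 80.3, 90.3 and 93.5 CPM to 111, 110 and 112 CPM with the groups apart. MRPL3, MRPL20, MRPL44, MRPS7 and MRPS30 lay between 0.07 and 0.22 with DNR and none passed. RPL22 was at 0.12 ± 0.08 (adjusted p = 0.298), and RPL22L1, outside the symbol rule, at -0.18 ± 0.13 (adjusted p = 0.316). MRPL12, which also binds the mitochondrial RNA polymerase, was at -0.05 ± 0.26 (adjusted p = 0.919), with 119 CPM in the third ML-792 library against 48.5 to 86.7 CPM in the other 11.

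Genes that work with ribosomes were counted from lists in the same comparisons. Beside them, 14.3% of all genes rose and 15.7% fell with DNR, and 16.3% and 17.4% did so with DNR in the presence of ML-792. At an unadjusted p under 0.05 in edgeR, 40.5% and 44.3% of all genes passed. Of 6 fusion or paralogous ribosomal proteins outside the rule, none passed with DNR, with 1 at an unadjusted p under 0.05. In ML-792+DNR against ML-792, 1 of the 6 rose and 1 fell, the latter being RPL7L1, which fell by 0.29 on the log2 scale (SE 0.09, adjusted p = 0.0312). None of the 5 tested mitochondrial ribosomal proteins with other symbols passed in either comparison, and none did at an unadjusted p under 0.05. DAP3, which binds GTP in the small subunit, was at -0.01 ± 0.07 with DNR. Of 22 translation factors and companions with TOP mRNAs, 3 rose and 2 fell with DNR, and 4 rose and 3 fell with DNR in the presence of ML-792, and the medians were 0.12 in both. Among them EIF4A2, a helicase of the initiation complex, was at 502, 481 and 462 CPM in DMSO and at 133, 222 and 150 CPM in DNR, a fall of 1.52 on the log2 scale (SE 0.19, adjusted p = 6.93e-05). Its companion EIF4B fell by 0.44 on the log2 scale (SE 0.12, adjusted p = 0.0129). Of 27 other initiation factors, 4 rose and 2 fell with DNR, led by EIF1, which selects the start codon, at 0.73 ± 0.09 (adjusted p = 5.13e-05) and the cap-binding EIF4E at -0.54 ± 0.12 (adjusted p = 0.00349).

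On the mitochondrial side, 3 of 11 translation factors rose and 3 fell with DNR, where 14.3% of all genes rose and 15.7% fell. The release factor MTRF1L was at 0.50 ± 0.11 (adjusted p = 0.00515) and C12orf65, a rescue factor for stalled ribosomes, at -0.55 ± 0.09 (adjusted p = 0.000406). Of 24 assembly and rRNA factors, 4 rose and 4 fell, and the largest values were those of the rRNA methyltransferase TFB1M at -0.58 ± 0.10 (adjusted p = 0.000922) and of MTERF3 at -0.55 ± 0.11 (adjusted p = 0.00163). Of 5 genes of mitochondrial transcription, TFAM rose, and POLRMT, the polymerase, fell by 0.56 on the log2 scale (SE 0.15, adjusted p = 0.0139), as did TEFM by 0.46 (SE 0.11, adjusted p = 0.00844). The 13 transcripts encoded in mitochondria, the messages that these ribosomes read, had a median of 0.34 in DNR against DMSO, and none passed, with 0 at an unadjusted p under 0.05. Replicate 1 of DNR stood apart, as for COX1 with 6285, 4087 and 5519 CPM in DMSO and 10450, 5083 and 5392 CPM in DNR, where the other DNR libraries lay within the DMSO range. Of 11 genes listed as chaperones or importers of ribosomal proteins, 1 rose and 2 fell. HEATR3, an importer for RPL5, was at -0.89 ± 0.12 (adjusted p = 0.000156). AAR2, a splicing factor that the list also held, was at -0.42 ± 0.13 (adjusted p = 0.0295). RPS19BP1, a binding partner of RPS19, passed 2-fold in ML-792+DNR against DMSO at 1.03 ± 0.34 (adjusted p = 0.0304).

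Of 14 regulators, 1 rose, 9 fell and 4 did not pass with DNR, beside 14.3% higher and 15.7% lower over all genes, with a median of -0.46 and 3 above 0. MYC, a transcription factor that activates ribosome production, had 520, 725 and 584 CPM in DMSO, 81.5, 146 and 118 CPM in DNR, 1045, 1507 and 1296 CPM in ML-792 and 251, 584 and 344 CPM in ML-792+DNR. It fell with DNR by 2.41 on the log2 scale (SE 0.28, adjusted p = 4.16e-05) and was higher in ML-792+DNR than in DNR by 1.77 ± 0.28 (adjusted p = 0.0127). GABPA, a subunit of GABP, was the member that rose, by 0.28 ± 0.09 (adjusted p = 0.0344), from 71.9, 62.6 and 70.8 CPM to 86.4, 74.5 and 88.1 CPM, while its partner GABPB1 was at -0.30 ± 0.08 (adjusted p = 0.013) and YY1 at 0.07 ± 0.08 (adjusted p = 0.56). NRF1 fell with DNR by 0.66 on the log2 scale (SE 0.10, adjusted p = 0.000247). LARP1 fell by 0.55 (SE 0.08, adjusted p = 0.000358), and RPTOR, the mTOR partner, by 0.71 (SE 0.11, adjusted p = 0.000404). In ML-792+DNR against ML-792 the list again held 1 higher and 9 lower, beside 16.3% and 17.4% of all genes. The lists were read as counts and medians, and no test of a list was made.

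Some ribosomal protein genes could not be read from these counts. RPL17, RPL36A, RPS10 and MRPS24 were at 0 in every library. On GRCh37 their exons lie under readthrough genes of the same strand for 96.9%, 43.8%, 84.0% and 90.9% of their length. The counter leaves out reads that fit more than 1 gene. MRPL53, however, shares 99.2% of its exon length with CCDC142 on the same strand and held 10408 counts. Why the 4 genes had no counts was not tested. Pseudogene rows named after RPL17 held 28577 counts, and those of all cytosolic members together amounted to 0.752% of the members' own counts, against 0.242% for the mitochondrial class. The share was above 5% for MRPS31 (20.5%), RPS28 (17.9%), RPL9 (12.5%), MRPL45 (7.66%), RPS2 (7.09%), RPL41 (6.86%) and RPL23A (5.22%), so the values of these 7 members, among them the fall of MRPS31 with DNR, are uncertain.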

How the data were processed

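RNA of HL-60 cells was sequenced by the authors as single-end 50-base reads from stranded polyA libraries and mapped to the hg19 build (GRCh37). The submitters' processing notes name TopHat2 2.1.1, Bowtie2 2.3.5.1 and, for the counting, HTSeq 0.11.1. The deposited raw counts per gene were used here. For the strand setting of the counting and the annotation release, nothing is stated in those sources. Overlapping and near-identical genes are therefore uncertain. The deposited normalized table and the authors' comparison table, with fold changes and p-values, were not used. The 5 counter lines were left out.

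Counts were fitted with edgeR 4.0.16 (R 4.3.3, TMM factors of 0.954 to 1.04, filterByExpr by group, glmQLFit and glmQLFTest) with a term for group over all 12 libraries. Of 42157 genes, 13696 were tested, with all 153 members among them, and p-values were adjusted over all of these by the Benjamini-Hochberg method. A call was an adjusted p under 0.05, and a second rule added a fold of at least 2. Changes are log2 values with the SE taken as the change divided by the square root of F. CPM are scaled by the TMM factors. The script was tested on simulated data.

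Members named are, for each comparison and class, up to 3 largest rises and 3 largest falls with an adjusted p under 0.05, at least 5 CPM and groups that do not overlap, those past 2-fold, the 3 highest and lowest per kilobase, and a list of well-known members. The members still called in the text beside these, RPS12, RPS13, RPL24 and MRPS22 among them, were named after their values were seen, as were the sequences shown. Of each list, members past 2-fold or else the 2 largest called changes were named, and DAP3, RPL22L1, COX1, EIF4B, TFAM, GABPA, GABPB1, YY1, NRF1, LARP1 and RPTOR were added after their values were seen. Members, lists and tests were chosen with earlier results of these data known.

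Same-numbered libraries deviated together from their group means (r from 0.12 to 0.543, every pair) in 4 comparisons. In DNR against DMSO their r was 0.0798, 0.23 and 0.306, each above every r between DMSO and DNR libraries of different numbers (-0.252 to 0.00103). The numbers stand for the 3 independent experiments. Lengths, GC content and exon overlaps came from GENCODE on GRCh37, and start windows from RefSeq on GRCh38.p14. No start window was found for 25 members, among them RPL5, RPL8, RPS2, RPS20 and MRPL2. Some items that these rules name are not reported here. Alternatives were DESeq2 1.42.0, limma voom 3.58.1, other size factors, other filters, fits limited to the compared groups, a block for the replicate number, each library left out, replicates 2 and 3 only, and, chosen after seeing the data, an offset for GC content.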

Additional observations from a re-analysis of the deposited data

Results flagged for a closer look

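Reads with more than 1 alignment, which entered no comparison, took a larger share of the records in libraries with DNR than in any DMSO library. The lowest DNR library held 28.0% and the lowest ML-792+DNR library 28.3%, against 27.2% in the highest DMSO library. The genes these reads came from are not in the count table, and their relation to the cytosolic members was not tested.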

How the results depend on the processing

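Counts of called members varied with the processing, and no called result reversed its direction. For the other filters, the GC offset, the compared groups only and libraries left out, the share of all genes called is not given. For DNR against DMSO, the cytosolic count of 6 became 12 with no count filter, 19 with the replicate block, 11 with the groups of the comparison only, 0 on replicates 2 and 3 only, 15 with the GC offset, 37 with the offset and the block, and 0 to 9 with single libraries left out, and the mitochondrial count of 19 became 4 on replicates 2 and 3, 34 with offset and block, and 9 to 21 with single libraries left out. It was 10 without replicate 1 or replicate 3 of DMSO, 9 without replicate 1 of DNR and 12 without replicate 3 of DNR. For ML-792+DNR against ML-792, the cytosolic count of 27 became 56 with the replicate block, 4 with the groups of the comparison only, 0 on replicates 2 and 3, 49 with the GC offset, 67 with offset and block, and 1 to 39 with single libraries left out, and the mitochondrial count of 27 became 13 with the groups only, 4 on replicates 2 and 3, 53 with offset and block, and 10 to 32 with single libraries left out. For ML-792+DNR against DNR, the mitochondrial count of 0 became 1 with DESeq2, 1 with no count filter, 1 with the replicate block, 4 with offset and block, and 0 to 1 with single libraries left out (1 without replicate 3 of ML-792). For ML-792+DNR against DMSO, the cytosolic count of 47 became 1 on replicates 2 and 3, 71 with offset and block, and 8 to 53 with single libraries left out, and the mitochondrial count of 37 became 10 on replicates 2 and 3 and 14 to 42 with single libraries left out. In the edgeR fit without the block, the counts at 2-fold or more were 0 in the comparisons with DNR, and 1 for mitochondrial members in ML-792+DNR against DMSO. These counts need not hold in the alternatives. In ML-792+DNR against DMSO, RPL39L and MRPL41 were past 2-fold without the block but did not pass. With the replicate block in edgeR both passed, with adjusted p of 0.0477 and 0.0488. The 2-fold counts of the alternatives are not given. Where samples are left out, fewer are fitted; the cause of the other shifts was not tested.

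The difference of the class medians ranged from -0.0434 to 0.103 for ML-792+DNR against ML-792 (0.103 without replicate 2 of ML-792) and from -0.0531 to 0.0916 for ML-792 against DMSO (0.0916 without replicate 3 of ML-792) with single libraries left out, so that its sign changed there. It stayed between -0.0286 and 0.00983 for ML-792+DNR against DNR, and it was above 0 in every alternative for DNR against DMSO (0.0376 to 0.0863) and ML-792+DNR against DMSO (0.0163 to 0.0557). For named genes, 220 values lost and 111 gained a call over the alternatives, and 3965 kept their side of the threshold. For DNR against DMSO, r between same-numbered libraries ran from 0.0798 to 0.306, above that of differently numbered ones (highest 0.00103). Members under 10 CPM, such as RPL39L and MRPL41, rest on few counts.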
